A study of Mus musculus with 8 samples.

Results

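The microRNAs described here are the detected mouse miRNAs with high numbers in their names. They were chosen by name and by summed raw count, and the counts that chose them include those compared below. The rule took every mature miRNA named miR-N with N of 1000 or more, miR-3074 excepted, whose raw counts over the 6 small RNA libraries summed to 10 or more. It found 238 among 1907 listed mature miRNAs, or 22.4% of the 1061 that carry such a number. Of the rest of those 1061, 304 had 1 to 9 counts and 519 had none. The libraries came from primary macrophages of wild-type mice aged 8 to 12 weeks whose bone marrow cells were kept for 6 days with L929 supernatant, a source of the growth factor MCSF. Of these, 3 libraries were unstimulated controls and 3 came from cells given LPS, a cell wall component of bacteria sensed by Toll-like receptors, at 100 ng/ml for 3 h. Neither the mouse strain nor the origin of the 3 replicates (separate mice, cultures or one pool) is given in the labels, so the p-values speak only of the scatter among these libraries, part or all of which could be technical.

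A miRNA is cut from a hairpin in a longer transcript, in most cases first by Drosha with its partner Dgcr8 and then by Dicer. The hairpin's 5p or 3p arm is then loaded into an Argonaute protein, where its seed, bases 2 to 8, pairs with messenger RNAs. Names are numbered in the order in which miRNAs were registered, so that high numbers were mostly assigned from deep sequencing. Some such hairpins are mirtrons, short introns that splicing rather than Drosha releases and that therefore end with the letters AG that end most introns. Others lie within genes of small nucleolar RNAs, Cajal body RNAs or tRNAs, which are themselves abundant.

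Levels are CPM, a library's counts brought to a common total of 1e6 and scaled with edgeR's TMM factors, and are given as mean ± SD (n = 3 libraries per group). Library totals ranged from 3280688 to 4312555 counts. Of 7 macrophage and blood cell markers 6 had counts, with miR-142a-3p at 0, and their sum was 489329 to 546522 CPM in controls and 496251 to 564524 CPM after LPS. Lymphocyte markers summed to 59.1 to 75.2 CPM in controls and 67.2 to 80.4 CPM after LPS, from 249 to 310 counts per library. Endothelial markers summed to 0 or 1 counts. Muscle, liver and neural markers had 0 counts, erythroid markers 0 to 5 and stromal markers 1 to 9 per library. How reads that match more than 1 hairpin were counted is not given, so a count of 0 does not show absence. Epithelial markers (5 of 6 with counts, miR-205-5p at 0) summed to 241.0 to 269.4 CPM in controls and 219.4 to 275.1 CPM after LPS, and their part in the results below was not tested. As a check of the labels, miR-155-3p, an arm of the LPS-induced miRNA miR-155, had 4.08 ± 2.24 CPM without LPS and 474.4 ± 28.1 CPM with it. The other arm, miR-155-5p, varied more among the controls, at 1106.1, 282.5 and 682.2 CPM. After LPS it was at 5190.5, 4230.9 and 4479.5 CPM.

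The mature sequences of the most abundant later-numbered miRNAs are shown first because they carry most of the counts. All sequences and positions are RefSeq's for GRCm38.p6, run 5′ to 3′, and have the seed in capitals here. RefSeq's table held 203 of the 238 mature sequences, and miR-5099 and miR-1839-3p are named only.
miR-1839-5p: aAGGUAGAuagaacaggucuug
miR-1249-3p: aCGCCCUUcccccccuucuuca
miR-7043-3p: aCUGUGCCucucuguuuucag
miR-1843b-5p: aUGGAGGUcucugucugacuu
miR-1843a-5p: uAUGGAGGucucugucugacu
miR-3068-3p: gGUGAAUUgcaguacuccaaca
miR-1981-3p: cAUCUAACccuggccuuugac
miR-1981-5p: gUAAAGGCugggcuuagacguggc
miR-1964-3p: cCGACUUCugggcuccggcuuu
miR-8114: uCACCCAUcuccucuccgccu

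miR-1843a-5p and miR-1843b-5p share a run of 20 bases and are offset by 1 base, so that their seeds differ although most of a read fits both. They were the only near-identical pair found among the 203 members with a sequence. Each of these, without its first 2 and last 3 bases, was searched for in all other listed mature sequences. How reads that fit both were divided is not given in the sources used here, so the split of counts between them is uncertain.

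Levels were low. The median level of the 238 later-numbered miRNAs was 1.33 CPM over the 6 libraries, against 46.7 CPM for the 321 lower-numbered miRNAs (let-7 included) that met the same sum of 10 counts, a ratio of 35.0. The rule itself set the floor of both classes, so these levels are a description. In the 6 libraries the later-numbered median ran from 1.42 to 1.58 CPM and the lower-numbered median from 41.0 to 49.5 CPM. The later-numbered median was the lower one in each library. Of the later-numbered miRNAs 7 reached 100 CPM and none 1000 CPM. Of the lower-numbered ones 130 reached 100 CPM and 56 reached 1000 CPM.

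**Figure D1:**
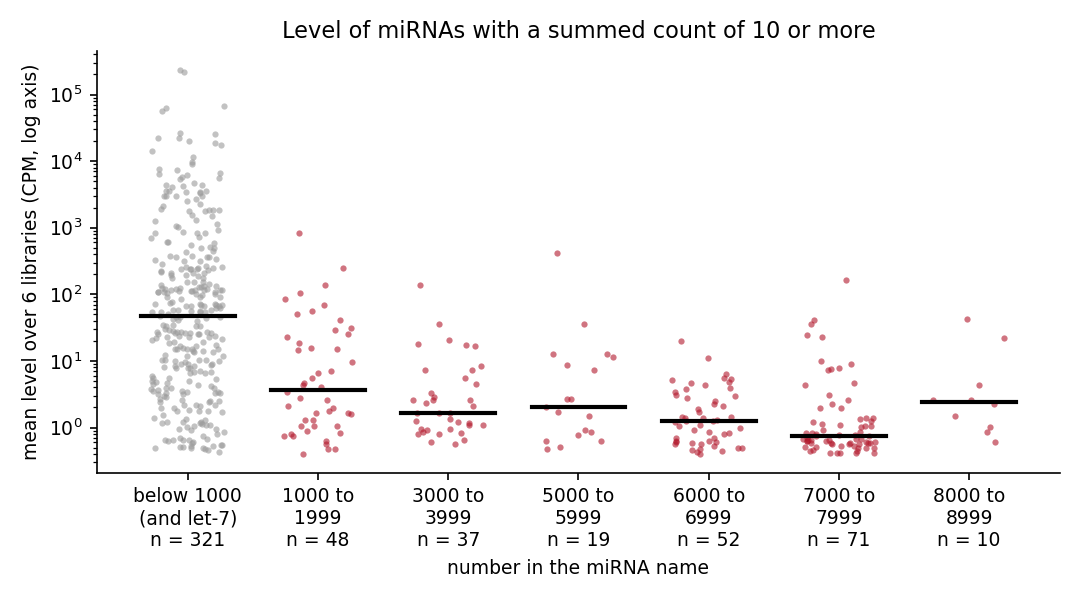
Mean CPM over the 6 libraries (log axis) of each miRNA with a summed count of 10 or more, by the number in its name, with a black bar at the median. Later-numbered miRNAs (red) had medians of 0.75 to 3.71 CPM per band and lower-numbered ones (grey) 46.7 CPM. The single member above 8999, miR-9769-3p, is not drawn.

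All 238 together held 0.338%, 0.319% and 0.344% of the counts in the controls and 0.311%, 0.333% and 0.325% after LPS. The groups overlapped. The means were 0.334% ± 0.0132 and 0.323% ± 0.0113. In bulk libraries such as these, fewer cells of a type and less RNA per cell cannot be told apart. Few members made up the sum: the first held 24.9% of it, the first 5 held 54.2% and the first 20 held 79.2%.

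Detection and level varied between bands of numbers. Of 120 listed miRNAs numbered 1000 to 1999, 40.0% were members, with a median of 3.71 CPM and 56.6% of the members' counts. Of 360 numbered 7000 to 7999, 19.7% were members, with a median of 0.75 CPM and 11.8% of the counts. Of 322 numbered 6000 to 6999, 16.1% were members, and of 4 numbered 2000 to 2999 none was. At the edge of the rule, miR-1930-3p, miR-6900-3p and miR-6946-3p had exactly 10 counts, and miR-3062-5p, miR-3103-5p and miR-3110-5p had 9.

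miR-1839-5p was the most abundant member and ranked 62 among all listed miRNAs. Its hairpin lies on chromosome 7 from 81529916 to 81529988, where it overlaps the lncRNA 2900076A07Rik and is in the span of no protein-coding gene. It was at 958.9, 743.9 and 835.2 CPM in the controls and at 842.9, 758.0 and 778.9 CPM after LPS. The LPS values lay within the control range, and the log2 fold change was -0.09 (SE 0.12). The other arm, miR-1839-3p, was at 84.1 ± 15.1 and 87.5 ± 23.4 CPM.

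miR-5099, from chromosome 12 (36816205 to 36816278), came second at 388.9, 373.6 and 442.6 CPM in the controls and 367.6, 428.8 and 463.2 CPM after LPS. Here too the groups overlapped, with a log2 fold change of 0.06 (SE 0.13). miR-1249-3p, on chromosome 15 (84951526 to 84951623) in the span of 5031439G07Rik, was at 245.5, 175.7 and 245.9 CPM in the controls and 234.6, 307.2 and 271.6 CPM after LPS. Its log2 fold change was 0.29 (SE 0.16), with 1 LPS library inside the control range.

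miR-7043-3p was the most abundant member numbered above 6000. Its hairpin lies on chromosome 6 from 116645978 to 116646047, in the span of Rassf4, a gene of the Ras association domain family. It was at 164.1, 121.8 and 148.2 CPM in the controls and at 190.9, 177.0 and 180.2 CPM after LPS. All LPS values lay above all control values, by a log2 fold change of 0.34 (SE 0.14), but the edgeR adjusted p was 0.319. The interval of the difference ran from 0.03 to 0.64 on the log2 scale (95%, before adjustment for the number of miRNAs tested).

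The 8 other members among the 12 most abundant were miR-1843b-5p, miR-3068-3p, miR-1843a-5p, miR-1839-3p, miR-1981-3p, miR-1964-3p, miR-1981-5p and miR-8114, at mean levels from 139.5 down to 42.0 CPM. miR-3068-3p, in the span of the dioxygenase gene Alkbh1, was at 140.5 ± 7.14 and 132.0 ± 15.1 CPM. miR-1964-3p, in the span of the zinc finger gene Zfp84, was at 54.6 ± 10.5 and 58.2 ± 5.91 CPM. miR-8114, outside any protein-coding span, was at 42.0 ± 5.86 and 42.0 ± 6.45 CPM. For all 12 the 95% interval of the log2 fold change lay between -1 and 1, so a change of 2-fold or more lay outside each interval.

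**Figure D2:**
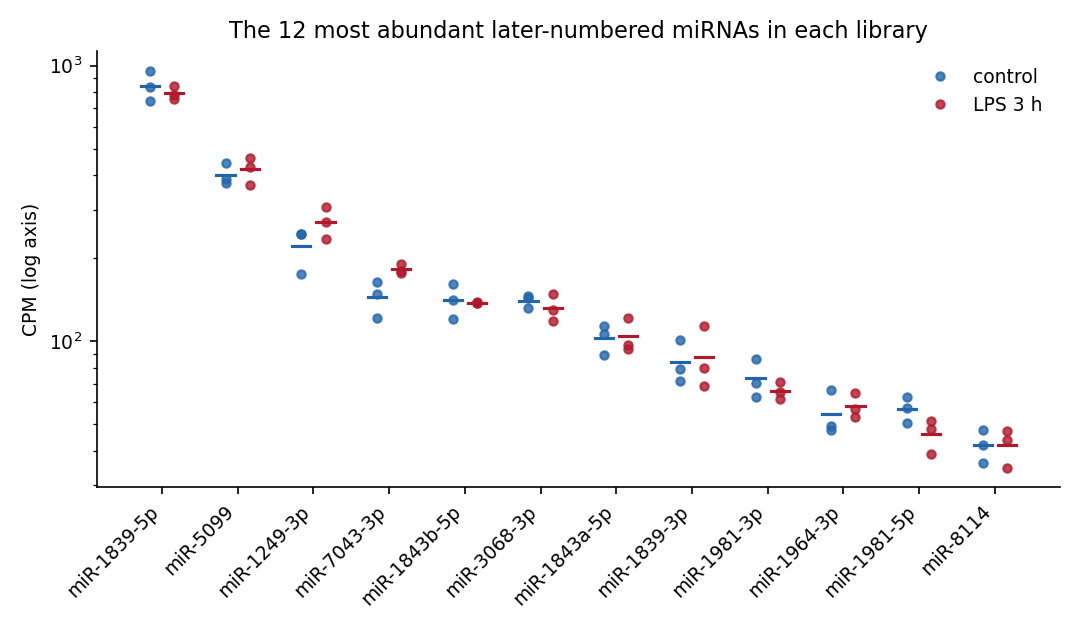
CPM (log axis) of the 12 most abundant later-numbered miRNAs in each control (blue) and LPS (red) library, with a bar at each group's mean. In 11 of the 12 the groups overlap, and in miR-7043-3p the 3 LPS libraries lie above the 3 controls. Over all 357 tested miRNAs 16.0% did not overlap.

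Some members were uneven between libraries of one group. miR-6236 was at 24.0, 20.4 and 9.94 CPM in the controls and 9.18, 12.0 and 41.9 CPM after LPS. Its highest library exceeded its lowest 4.56 times, and both were LPS libraries. miR-3535, in the span of the nucleolin gene Ncl, was at 55.1, 47.8 and 22.3 CPM in the controls and 43.4, 21.6 and 21.3 CPM after LPS, and miR-1983 ranged from 12.4 to 34.4 CPM within the controls alone. Over the 89 members that passed the filter on low counts, the median coefficient of variation was 20.8% in controls and 18.2% after LPS, against 12.7% and 13.0% for the 267 lower-numbered miRNAs tested.

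The main comparison asked which of these miRNAs LPS changed within 3 h. Of the 238 members, 89 passed the filter on low counts and 149, with 10 to 65 counts in all, did not and were left out of this fit. With no filter edgeR tested all 238 and called none, with 14 at an unadjusted p below 0.05, where 26 of all 941 miRNAs were called. None of the 89 passed edgeR's quasi-likelihood test at an adjusted p below 0.05, where 5.04% of all 357 tested miRNAs did (3.64% higher and 1.40% lower after LPS). At an unadjusted p below 0.05 edgeR gave 5 members, or 5.62%, against 11.8% of all tested miRNAs. DESeq2 also called none of the 89 at an adjusted p below 0.05 (5.88% of all tested) and gave 2 at an unadjusted one (10.1% of all tested). With limma-voom it was 0 (5.04%) and 5 (11.5%). The 3 LPS and 3 control values did not overlap in 8 members, or 8.99%, against 16.0% of all tested miRNAs.

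Log2 fold changes of the 89 ran from -0.78 to 1.03 with a median of 0.01, and 46 were above 0. Over all 357 they ran from -1.89 to 6.85, also with a median of 0.01. The fold change was at most 0.5 in size in 83 of the 89 members (93.3%) and in 319 of all 357 (89.4%). Low counts limited what could be seen. The median SE was 0.29 for the members and 0.17 for the lower-numbered miRNAs. For 60 of the 89 (67.4%) the 95% interval lay between -1 and 1, so for the other 29 a 2-fold change in at least one direction was not left out at this depth. Of the 37 tested members at 10 CPM or more, 34 had such an interval.

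**Figure D3:**
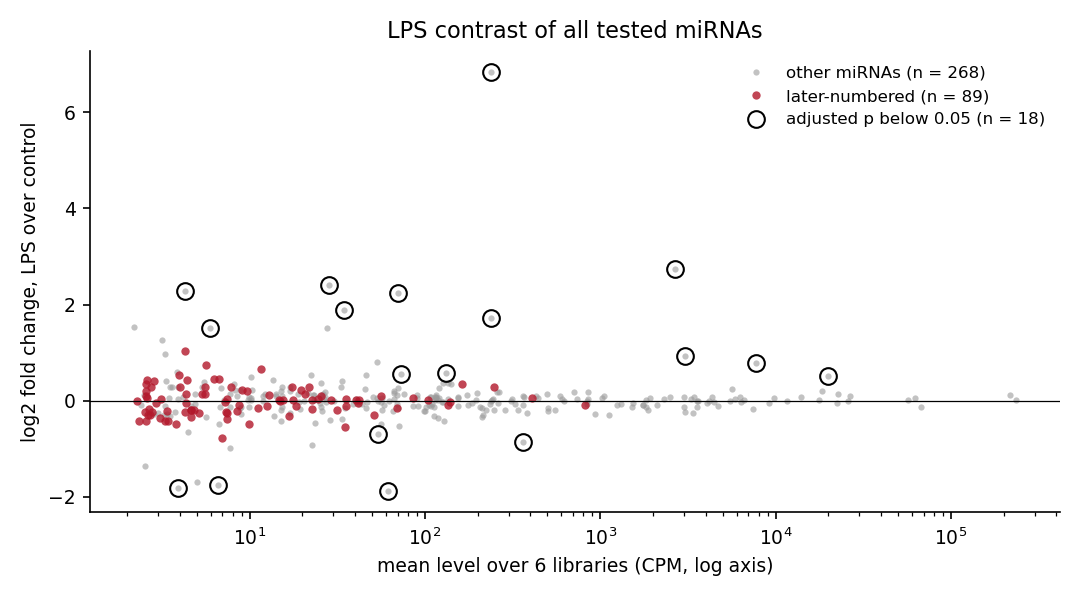
Log2 fold change of LPS over control against mean CPM (log axis) for the 357 tested miRNAs, with the 89 later-numbered ones in red, the others in grey and the 18 with an adjusted p below 0.05 circled. The red points lie between -0.78 and 1.03, and none is circled.

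miR-1934-5p had the largest log2 fold change among the 89 and the lowest adjusted p. Its counts were 11, 10 and 14 in the control and 16, 27 and 22 in the LPS libraries. All LPS libraries lay above all controls. The log2 fold change was 1.03 (SE 0.28) with an edgeR adjusted p of 0.0733. The adjusted p ranged from 0.070 to 0.469 over the alternatives in which miR-1934-5p was tested.

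The next largest positive values belonged to miR-3109-3p (log2 fold change 0.75, SE 0.30), miR-5107-3p (0.67, SE 0.26), miR-6963-3p (0.53, SE 0.36) and miR-1948-5p (0.45, SE 0.29). The hairpin of miR-3109-3p lies in the span of the annexin gene Anxa2. In each of these 4 the groups overlapped, where in 16.0% of all tested miRNAs they did not. miR-5107-3p was at 7.83, 7.77 and 11.2 CPM in the controls and 18.4, 10.8 and 13.7 CPM after LPS, with 1 LPS library below the highest control. Its edgeR adjusted p was 0.307.

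On the other side, miR-1191b-5p, in the span of the transcription factor gene Nfic, had 50, 24 and 36 counts in the control and 17, 19 and 21 in the LPS libraries. The groups did not overlap, at a log2 fold change of -0.78 (SE 0.30) and an edgeR adjusted p of 0.279. Values of -0.55 (SE 0.36), -0.48 (SE 0.23), -0.48 (SE 0.30) and -0.43 (SE 0.37) belonged to miR-3535, miR-7219-3p, miR-6960-5p and miR-3964. Of these 4, miR-7219-3p and miR-6960-5p had all LPS libraries below all controls, and none passed the test. Over all tested miRNAs 16.0% did not overlap and edgeR called 5.04%. These 4 were picked by their fold change, so their number cannot be set against those shares.

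About as many 3p members ended in the letters AG as did not, a feature the rule did not use. Of the 104 members on a 3p arm with a known sequence, 51 (49.0%) ended in AG, against 5 of 135 (3.70%) detected lower-numbered 3p arms and 4 of 65 (6.15%) later-numbered 5p members. Later-numbered 3p arms below the sum of 10 had it in 123 of 259 (47.5%). It was found in 25 of 42 3p members numbered 7000 to 7999 and 17 of 24 numbered 6000 to 6999, but in 2 of 14 numbered 1000 to 1999. Some of the more abundant 3p members of this kind are shown, without miR-7015-3p at 534 counts, with these final letters in capitals.
miR-7043-3p: acugugccucucuguuuucAG
miR-7035-3p: ucugagccgcugucccugcAG
miR-7068-3p: ucacccuggacugacucucAG
miR-3082-3p: cacauggcacucaacucugcAG
miR-7046-3p: ugaaccacccaucccccuacAG
miR-3076-3p: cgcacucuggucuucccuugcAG
miR-7091-3p: aguggcuucugucgucucuAG
miR-6911-3p: ucaaucacacucuguccacAG

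The median share of C and U was 68.2% in 3p members and 54.5% in detected lower-numbered 3p arms, and 40.9% in 5p members against 50% in lower-numbered 5p arms. Later-numbered arms below the sum of 10 had median shares of 66.7% in 3p and 37.8% in 5p. In 52 of 98 3p members with a hairpin sequence the mature arm ran to the hairpin's last base. It did so in 164 of 245 later-numbered 3p arms below the sum of 10 and in 1 of 126 detected lower-numbered ones. Where a hairpin stops is a choice of its annotators. The hairpins of miR-7043 and miR-1839 show both layouts, with the abundant arm in capitals.
hairpin of miR-7043-3p: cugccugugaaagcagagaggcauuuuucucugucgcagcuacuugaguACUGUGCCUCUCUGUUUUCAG
hairpin of miR-1839-5p: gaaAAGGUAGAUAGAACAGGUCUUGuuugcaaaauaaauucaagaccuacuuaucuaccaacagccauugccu

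The 238 members came from 198 hairpins, of which 172 (86.9%) lay in the span of a protein-coding gene, against 104 of 196 (53.1%) for the detected lower-numbered miRNAs and 339 of 450 (75.3%) for later-numbered hairpins without a member. For the 51 3p members ending in AG it was 50 of 51. The table gives spans only, so introns, exons and strand are not told apart. Of the 13 tested 3p members ending in AG with a hairpin sequence, none was called by edgeR at an adjusted p below 0.05 (5.04% of all tested miRNAs were), 1 had an unadjusted p below 0.05 (11.8% of all tested miRNAs had), and log2 fold changes ran from -0.33 to 0.53 with a median of 0.03.

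Mirtrons known by name gave 5 members. miR-1981, in the span of Mtarc2, an enzyme gene of the outer mitochondrial membrane, was the most abundant, with miR-1981-3p at 73.3 ± 11.9 and 65.9 ± 4.73 CPM and miR-1981-5p at 56.8 ± 6.13 and 46.1 ± 6.40 CPM. The listed 3p sequence of miR-1981 does not end in AG, whereas those of miR-1982 and miR-5132 do. miR-1982-3p, in the span of Oaz1, an inhibitor of polyamine synthesis, had 94 counts in all. Both arms of miR-5132 had 15 and 20 counts and did not pass the filter. The 3 members that passed it had a median log2 fold change of -0.15, against 0.01 over all tested miRNAs, and edgeR called none of the 3 (5.04% of all tested miRNAs were called), a number too small to set against that share. The list has 7 hairpins and was written from background knowledge, and no arm of miR-1224 had a count.

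A smaller set of members overlapped other small RNA genes that RefSeq lists. It held 9 mature miRNAs from 6 hairpins and 10.6% of the members' counts. Small RNA genes that RefSeq does not list could not be found, so the set may be incomplete. The pair miR-1843b and miR-1843a lies on Scarna3a in the span of the ubiquitin ligase gene Cop1 (chromosome 1, 159340358 to 159340423) and on Scarna3b in that of Dcaf5 (chromosome 12, 80391613 to 80391677). miR-1843b-5p was at 141.1 ± 20.3 and 137.9 ± 0.946 CPM and miR-1843a-5p at 103.2 ± 12.5 and 104.1 ± 14.7 CPM. These genes encode RNAs that guide the modification of spliceosomal RNAs in Cajal bodies.

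The others overlapped a nucleolar RNA, a tRNA or a further Cajal body RNA. miR-5121, on Snord33 in the span of the ribosomal protein gene Rpl13a, was at 36.8 ± 9.74 and 34.5 ± 10.5 CPM. miR-1983, on the isoleucine tRNA gene n-TItat14 (chromosome 13, 21896918 to 21897049), was at 24.9 ± 11.4 and 26.4 ± 6.57 CPM. miR-1291 on Snora34 and both arms of miR-3069 on Scarna13 had 126, 62 and 61 counts in all. For none of the 9 can counts of the miRNA and of fragments of the other RNA be told apart in these files. All 9 were tested, and edgeR called none at an adjusted p below 0.05 (5.04% of all tested miRNAs were called), so that 0 of 9 is near the background.

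Seeds were rarely shared. The 203 members with a sequence had 199 different seeds, and 4 of them (1.97%) shared a seed with a detected lower-numbered miRNA. With any listed lower-numbered miRNA, detected or not, 11 (5.42%) did. Within the classes, 8 of the 203 members shared a seed with another member. Among 283 detected lower-numbered miRNAs with a sequence, 107 (37.8%) shared a seed with another of them. The 4 pairs of a member and a detected lower-numbered miRNA are shown with the seed in capitals. miR-455-5p and miR-674-5p are lower-numbered partners that the macrophages also held, at 98 and 2970 counts in all, and miR-18a-3p and miR-211-5p had 1566 and 14.
miR-3473d: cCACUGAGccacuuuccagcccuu
miR-674-5p: gCACUGAGaugggaguggugua
miR-5129-3p: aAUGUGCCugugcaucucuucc
miR-455-5p: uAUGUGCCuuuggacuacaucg
miR-7670-3p: uUCCCUUUcugaauaucuguaga
miR-211-5p: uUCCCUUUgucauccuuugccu
miR-7069-3p: cCUGCCCUgccaaccccuaca
miR-18a-3p: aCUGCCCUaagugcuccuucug

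miR-3473d had 408 counts and miR-5129-3p 207, miR-7670-3p had 33 and miR-7069-3p 15. miR-3473d was at 15.7 ± 0.754 CPM without LPS and 19.2 ± 3.86 CPM with it, and miR-5129-3p, from the span of the transcription factor gene Zeb2, at 8.99 ± 1.30 and 8.37 ± 1.49 CPM. Neither was called by edgeR.

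The balance between arms was described for hairpins with both arms listed and at least 10 counts together. The 3p arm held more counts in 115 of 177 later-numbered hairpins (65.0%), the 5p arm in 58, and 4 were even. In 162 lower-numbered hairpins the 3p arm led in 73 (45.1%). With at least 50 counts the shares were 34 of 59 (57.6%) and 66 of 146 (45.2%). Among later-numbered hairpins with at least 10 counts the 3p arm led in 53 of 74 (71.6%) where it ended in AG and in 47 of 78 (60.3%) where it did not. With at least 50 counts this was 14 of 18 and 15 of 31. In lower-numbered hairpins whose 3p arm ended in AG it led in 1 of 9, or 1 of 8 with at least 50 counts.

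The leading arm held a median of 93.1% of the counts in later-numbered hairpins and 98.4% in lower-numbered ones. It held at least 90% in 97 of 177 (54.8%) and 121 of 162 (74.7%). With at least 50 counts these shares were close, at 42 of 59 (71.2%) and 110 of 146 (75.3%), and the median shares were 96.2% and 98.2%. With so few counts the share is coarse. Strongly 3p-led were miR-1249, with 4 counts on 5p and 5836 on 3p, miR-7043 with 15 and 3839, miR-7035 with 1 and 964, and miR-7068 with 2 and 850. Strongly 5p-led were miR-7688, with 582 counts on 5p and 0 on 3p, and miR-1947 with 538 and 1. An arm had 0 counts in 42 of the 177 later-numbered hairpins and in 29 of the 162 lower-numbered ones. For miR-7043 the 3p share was 99.6%, with a Wilson 95% interval of 99.4% to 99.8% that covers counting error only.

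**Figure D4:**
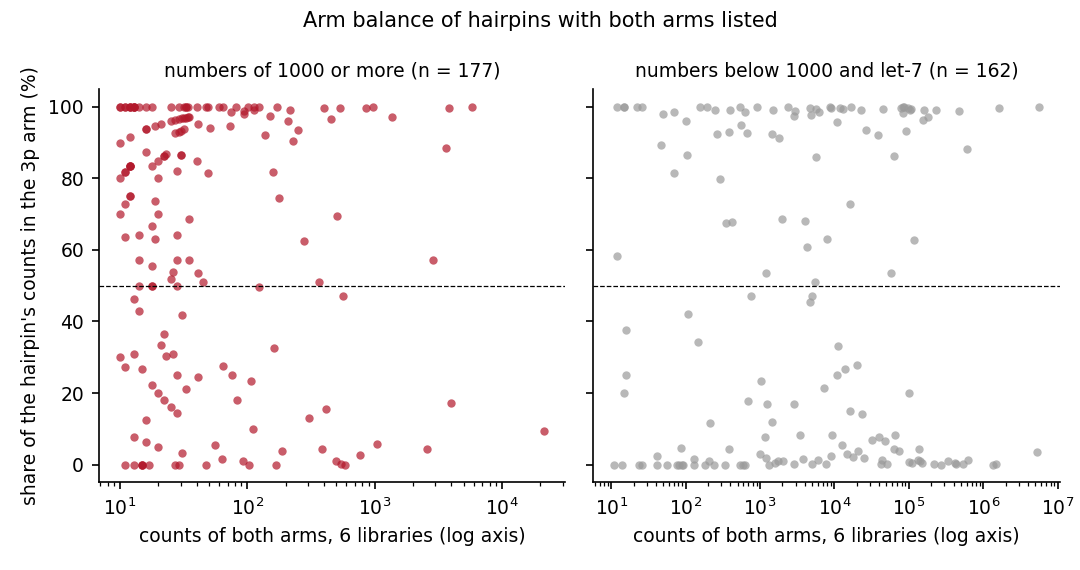
Share of a hairpin's counts on its 3p arm (%) against the counts of both arms over 6 libraries (log axis), for 177 later-numbered (left) and 162 lower-numbered (right) hairpins with at least 10 counts. The dashed line marks equal arms, and the 3p arm leads in 115 and 73 of them.

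In 40 hairpins both arms were members, in 83 only the 3p arm and in 35 only the 5p arm. Both arms of miR-1981, miR-5107 and miR-7091 were present at similar levels, with 3p shares of 57.2%, 47.0% and 51.0%. The hairpin miR-1306, in the span of Dgcr8, and the pair miR-1843b and miR-1843a favoured 5p, with 3p shares of 15.7%, 17.3% and 4.32%. miR-3068 and miR-1964 favoured 3p, at 88.5% and 97.2%.

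Whether LPS changed both arms of a hairpin equally could be tested for 12 later-numbered hairpins. None passed limma's test at an adjusted p below 0.05, where 12.0% of all 100 hairpins tested did, and none had an unadjusted p below 0.05, where 17.0% of all did. Taken as the log2 change of the minor arm over that of the major arm, the difference ran from -0.52 in miR-7091, to 0.55 in miR-3061, and 5p is the minor arm of both. The lowest adjusted p by limma, 0.372, was shared by miR-7091 and miR-5107. In miR-7091 the 3p share was 46.6% ± 4.64 in controls and 56.3% ± 2.60 after LPS, and in miR-5107 42.1% ± 7.53 and 51.6% ± 6.36. For miR-1839 it was 9.01% ± 0.448 and 9.91% ± 2.46, a difference smaller than the SD after LPS.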

How the data were processed

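The authors deposited 1 table of raw counts per library, with a whole number for each mature miRNA. Novoalign, SAMtools 0.1.19 and the build GRCm38.p1 (mm10) are listed in the submitters' processing notes. Not given in the sources used here are the counter, annotation release, strand setting and the treatment of reads that match more than 1 hairpin, and such reads could have been split, repeated or dropped. The members and lists were chosen with earlier results of these data known.

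All 1907 miRNAs entered edgeR 4.0.16 (R 4.3.3): TMM factors, filterByExpr with a minimum count of 10, the quasi-likelihood F test and Benjamini-Hochberg adjustment over the 357 miRNAs tested, which held 99.97% of counts. An SE is the fold change divided by the square root of F. Arms were compared with limma 3.58.1 on log-CPM (prior count 2). DESeq2 1.42.0, limma-voom, other scalings, filters and left-out libraries were alternatives. The scripts were tested on simulated data. Every pair of libraries within a group differed by more than counting noise (lowest chi-square 63.0 times its degrees of freedom). The 2 samples of the chromosome conformation assay were not analysed here.

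Named miRNAs are the members past the threshold, the 12 most abundant, the 5 largest log2 fold changes in each direction, hairpins with both arms as members, the mirtron list and the miRNAs nearest the sum of 10. Others were chosen after their values were seen: the members on other small RNA genes, the shared seeds, the 3p arms ending in AG, and those with uneven libraries or single-arm counts. Intervals cover counting error or the spread between libraries only, and no molecular identifiers were used in them.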

Additional observations from a re-analysis of the deposited data

How the results depend on the processing

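No later-numbered miRNA was called under any of the 15 alternatives run for the LPS comparison, and all 321 recomputed values of 22 named members stayed uncalled. Their lowest adjusted p in any setting was 0.070, for miR-1934-5p. The count over all miRNAs ran from 11 (without LPS replicate 3) to 18 when 1 library was left out, and was 26 with no filter, which also tested the 149 members that the usual filter left out and called none of all 238. A sum of 20 in place of 10 could not change the calls, since every tested member had at least 53 counts. Without a variance trend 7 hairpins had unequal arm changes in place of 12, and 8 to 14 with 1 library left out, none later-numbered. The ratio of median levels was 53.6 for miRNAs with at least 1 count and 11.6 for those with at least 50, so its size rests on the floor. Without miR-1839-5p the members held 0.247% of counts in place of 0.328%. With at least 50 counts the leading arm's median share was 96.2% in place of 93.1%. A replicate block gave 17 miRNAs and 11 hairpins, 0 of each later-numbered. Replicate numbers give no sign of pairing, as same-numbered libraries correlated at 0.02, 0.14 and -0.04 in their deviations. Depth limits what a test can show for those 149 members, with 10 to 65 counts each.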

Other observations

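Later-numbered hairpins also lay in the spans of a gene of miRNA processing and a gene of Toll-like receptor signalling, chosen after their values were seen. miR-1306, in the span of Dgcr8, whose protein is Drosha's partner (chromosome 16, 18284239 to 18284317), had a 5p arm whose level was 14.7 ± 1.17 CPM without LPS and 14.8 ± 5.45 CPM with it, a log2 difference of 0.01 (SE 0.26). miR-5132, in the span of Irak1, a kinase of Toll-like receptor signalling (chromosome X, 74023528 to 74023598), had 3, 6 and 2 counts on 3p in the controls and 2, 1 and 6 after LPS, and did not pass the filter on low counts.

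Among later-numbered miRNAs, 4 pairs shared a seed with each other: miR-7068-3p and miR-7023-3p (850 and 24 counts), miR-6960-5p and miR-7093-5p (92 and 11), miR-3077-3p and miR-7661-3p (26 and 16) and miR-6927-3p and miR-6945-3p (13 and 13).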
